A study of Rattus norvegicus with 62 samples.

Results

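Drd1 (ENSRNOG00000023688), Drd2 (ENSRNOG00000008428), Ppp1r1b (ENSRNOG00000028404) and Adora2a (ENSRNOG00000001302) carry the dopamine response of striatal projection neurons, and they were followed here across punches of the rat amygdala. These 4 genes were taken by their Ensembl identifiers out of 32545 genes in the count table, and all 4 were among the 16535 genes that had enough counts for testing. Amygdala RNA was sequenced from 62 male Long Evans rats that were 10 to 12 weeks old at exposure. Blast animals received 3 blast overpressure exposures of 74.5 kPa, spaced 24 hours apart, in a shock tube, and sham animals went through the same handling without the blast. Behavior was tested 1 to 1.5 months later in the sub-acute groups, with sample titles that start with A (17 sham and 17 blast animals), or about 12 to 13 months later in the chronic groups (14 sham and 14 blast animals). Tissue was collected in the weeks after the last test, so all groups, sham included, had been through fear conditioning. Each library came from punches 1.5 mm wide, taken on both sides and aimed at the central and basolateral nuclei, so the punch and not a sorted cell type set which cells contributed.

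As background, dopamine acts on striatal projection neurons, also called medium spiny neurons, through a pair of receptor types. Drd1 encodes the receptor of direct pathway neurons, which raises cyclic AMP, and Drd2 encodes the receptor of indirect pathway neurons, which lowers it. Adora2a encodes an adenosine receptor that opposes Drd2 in the indirect pathway neurons. Ppp1r1b encodes a phosphoprotein found in both kinds of neuron that blocks protein phosphatase 1 once protein kinase A has phosphorylated it. The striatum lies close to the amygdala, and neurons of the central nucleus and of the intercalated cell masses express several of these genes as well, so their level in a punch does not name its source.

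In the RefSeq promoter table of the GRCr8 assembly, 2 of the 4 genes had an entry. The counts were made on another build, Rnor 6.0, so this sequence serves only to show the gene. The window of Drd1 started inside the annotated gene and is not shown. The 250 bases before the Drd2 start site, at chr8:58605153-58605402 on the plus strand of GRCr8, are given as the remaining entry. Capitals mark matches to the GC box.
Drd2: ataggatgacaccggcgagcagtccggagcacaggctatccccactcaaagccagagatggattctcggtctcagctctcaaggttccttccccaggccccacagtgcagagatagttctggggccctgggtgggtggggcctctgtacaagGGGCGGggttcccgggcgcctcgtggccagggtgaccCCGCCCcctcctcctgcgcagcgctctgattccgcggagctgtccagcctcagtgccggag
Motifs were searched on both strands. The GC box, GGGCGG, had 2 matches here, starting 98 and 61 bases before the start site. At least 1 match was held by 30.5% of the 33469 promoter windows of the same length. The window had no match to TATAAA (12.9% of windows) or to TGACGTCA, the cyclic AMP response element (1.59% of windows).

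Library totals ran from 18220986 to 78585782 counts, and the chronic libraries were on the whole shallower. Chronic sham CS115 (20582780 counts) and chronic blast CB149 (18220986 counts) were the 2 libraries under 25000000 counts, and both stood apart in the ratio of Drd2 to Drd1. Correlations with Drd1 over all groups, this ratio and the group comparisons that contain these libraries are also given without them. Levels include them. Animal numbers form series that the sources used here do not explain. All 28 chronic animals were in series 1, with 2 sub-acute sham and 5 sub-acute blast animals, and the other sub-acute animals were in series 2 apart from AS601 in series 6. Time-point and series are therefore largely confounded. The tissue label could not be checked against other marker genes, because the gene table at hand paired 0 of the 32545 identifiers with a symbol and the names of the 4 genes were given with their identifiers.

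The levels of the 4 genes differed between animals of the same group more than those of nearly all other genes. Levels are given as CPM, counts per library total times 1000000 with totals scaled by the TMM method, and are compared between animals and not between genes, since the counts are not divided by gene length. Over all 62 animals Adora2a ran from 1.85 CPM in sub-acute sham AS208 to 430.1 CPM in chronic sham CS115, a range of 232.1-fold. Drd2 ran over 69.6-fold, from 3.44 CPM in AS208 to 239.4 CPM in sub-acute blast AB108. Drd1 ran over 23.0-fold (9.57 CPM in AS208 to 220.3 CPM in AB108) and Ppp1r1b over 20.3-fold (81.9 CPM in sub-acute blast AB103 to 1662 CPM in CS115). CS115, highest for Adora2a and Ppp1r1b, was among the libraries under 25000000 counts. The next highest levels of these genes were 324.7 and 1548 CPM, both in AB108. At the lowest count behind any of these values, that of Adora2a in AS208, the counting error was 9.49% of the count, which is small beside these ranges. On the log2 CPM scale, with group means removed, the standard deviation was 1.57 for Adora2a, 1.402 for Drd2, 1.16 for Ppp1r1b and 0.89 for Drd1, against a median of 0.30 over all genes tested. By this measure 0.302% of the genes tested were more variable than Adora2a, 0.617% more than Drd2, 1.43% more than Ppp1r1b and 5.38% more than Drd1. In bulk tissue, fewer cells of a type and less RNA per cell cannot be told apart.

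**Figure D1:**
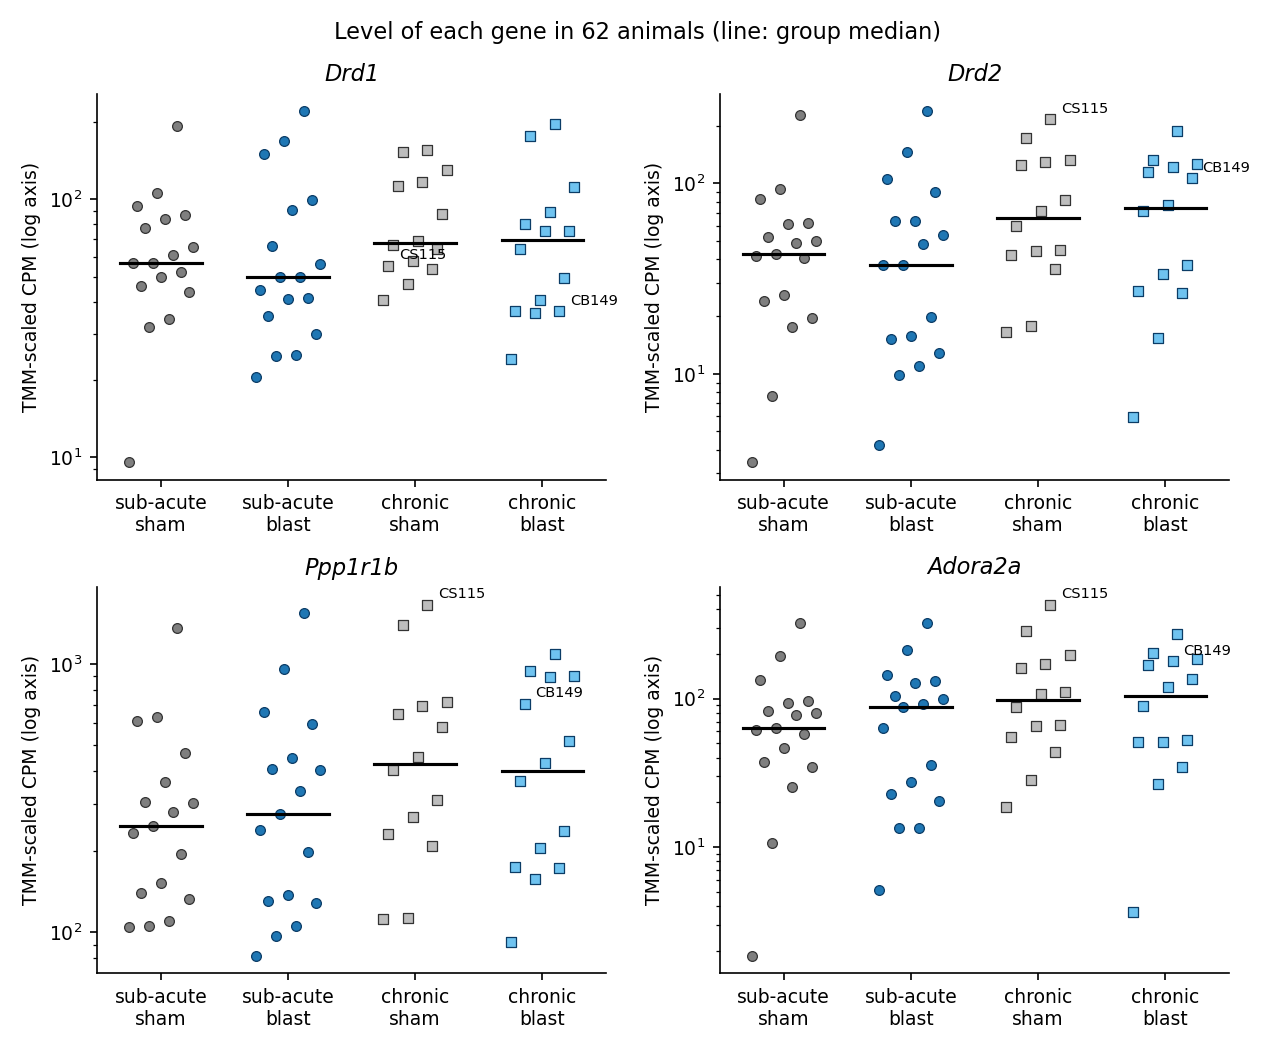
TMM-scaled CPM of Drd1, Drd2, Ppp1r1b and Adora2a on log axes, with 1 point per animal in the 4 groups and a line at each group median; the 2 libraries under 25000000 counts are named. The groups overlap over most of their range for every gene, while Adora2a spans 232.1-fold over all animals, with CS115 highest.

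Drd1, the receptor of direct pathway neurons, ran from 9.57 to 193 CPM in sub-acute sham animals (median 56.8) and from 20.4 to 220.3 CPM in sub-acute blast animals (median 49.9). At the chronic time-point it ran from 40.7 to 156 CPM in sham (median 67.7) and from 24.1 to 196 CPM in blast (median 69.9). Its mean log2 CPM was 5.84 ± 0.92 (SD, n = 17) in sub-acute sham, 5.80 ± 1.01 (SD, n = 17) in sub-acute blast, 6.30 ± 0.65 (SD, n = 14) in chronic sham and 6.03 ± 0.89 (SD, n = 14) in chronic blast. The 4 groups overlapped, and the order of their means, with chronic sham at the top and sub-acute blast at the bottom, spanned less than 1 SD.

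Drd2, the receptor of indirect pathway neurons, ran from 3.44 to 227.3 CPM in sub-acute sham (median 42.4) and from 4.22 to 239.4 CPM in sub-acute blast (median 37.3). In chronic animals it ran from 16.6 to 217 CPM in sham (median 65.7) and from 5.93 to 189 CPM in blast (median 74.2). The mean log2 CPM was 5.19 ± 1.39 (SD, n = 17) in sub-acute sham, 5.11 ± 1.56 (SD, n = 17) in sub-acute blast, 6.03 ± 1.15 (SD, n = 14) in chronic sham and 5.77 ± 1.43 (SD, n = 14) in chronic blast. Both chronic means lay above both sub-acute means, but every neighbouring pair in this order differed by less than 1 SD and the groups overlapped.

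Adora2a, the adenosine receptor of the same neurons, ran from 1.85 to 323 CPM in sub-acute sham (median 63.3), and the lowest value, in AS208, was well under the next lowest of 10.6 CPM. In sub-acute blast it ran from 5.12 to 325 CPM (median 88.0). Chronic sham animals held 18.6 to 430.1 CPM (median 97.8) and chronic blast animals 3.62 to 274 CPM (median 104.3). As for Drd2, the chronic means of 6.55 ± 1.26 (SD, n = 14) in sham and 6.24 ± 1.63 (SD, n = 14) in blast were above the sub-acute means of 5.75 ± 1.67 (SD, n = 17) in sham and 5.78 ± 1.64 (SD, n = 17) in blast on the log2 CPM scale, by less than the spread within a group.

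Ppp1r1b, the phosphoprotein downstream of these receptors, ran from 104.99 to 1356 CPM in sub-acute sham (median 249) and from 81.9 to 1548 CPM in sub-acute blast (median 277). It ran from 112.1 to 1662 CPM in chronic sham (median 425) and from 91.8 to 1091 CPM in chronic blast (median 397). Its mean log2 CPM was 8.004 ± 1.04 (SD, n = 17), 8.12 ± 1.23 (SD, n = 17), 8.69 ± 1.19 (SD, n = 14) and 8.54 ± 1.17 (SD, n = 14) in these groups, and again the groups overlapped.

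The same animals were at the top and the bottom of a group for several genes. Sub-acute sham AS237, sub-acute blast AB108 and chronic blast CB122 each had the highest level of all 4 genes in their group. AS237 held 193 CPM of Drd1, 227.3 of Drd2, 1356 of Ppp1r1b and 323 of Adora2a, and in AB108 these levels were 220.3, 239.4, 1548 and 325 CPM. At the other end, AS208 was lowest in its group for 3 of the genes and next to lowest for Ppp1r1b, and chronic blast CB135 was lowest for Drd2 (5.93 CPM), Ppp1r1b (91.8) and Adora2a (3.62) and next to lowest for Drd1 (36.3). Chronic sham CS115 broke this pattern. It had the highest Drd2, Ppp1r1b and Adora2a of its group, but at 55.4 CPM its Drd1 was number 11 of 14.

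To ask whether the 4 genes varied together, their log2 CPM values were correlated over the 62 animals after the group means had been subtracted, with permutation tests (two-sided, 100000 resamples within groups) for the 6 pairs. Drd2 and Adora2a, the indirect pathway pair, gave r = 0.971 by Pearson's and rho = 0.973 by Spearman's method (p = 1e-05 for each, the smallest that the resamples can give, adjusted p = 1e-05 over 6 pairs). Drd2 and Ppp1r1b had an r of 0.935 (rho 0.957), and Ppp1r1b and Adora2a an r of 0.900 (rho 0.964). Pairs with Drd1 had lower values. Drd1 had an r of 0.849 with Drd2 (rho 0.841), 0.788 with Ppp1r1b (rho 0.805) and 0.779 with Adora2a (rho 0.774). Each of the 6 pairs had the same smallest p and adjusted p for both coefficients, and whether the pairs with Drd1 differed from the others was not tested.

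All 6 pairs had an r above 0 in each group. The lowest values were those of Drd1 with Adora2a, 0.609 in chronic sham and 0.615 in chronic blast, and of Drd1 with Ppp1r1b in chronic sham, 0.671. Drd2 and Adora2a had an r of 0.974 in sub-acute sham, 0.980 in sub-acute blast, 0.988 in chronic sham and 0.952 in chronic blast. Drd1 and Drd2 had an r of 0.944 and 0.898 in the sub-acute sham and blast groups and of 0.692 and 0.753 in the chronic sham and blast groups. After the 2 animals farthest from the median of the gene on the x axis were left out, r was between 0.721 (Drd1 and Adora2a) and 0.972 (Drd2 and Adora2a). Within number series 1, r was 0.795 for Drd1 and Drd2 and 0.969 for Drd2 and Adora2a, and within series 2 it was 0.912 and 0.983. Without CS115 and CB149, over the remaining animals of all groups, the r of Drd1 with Drd2 was 0.901, with Ppp1r1b 0.859 and with Adora2a 0.837. Both libraries are included in the values above for the chronic groups and for series 1. There r was not computed without them.

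**Figure D2:**
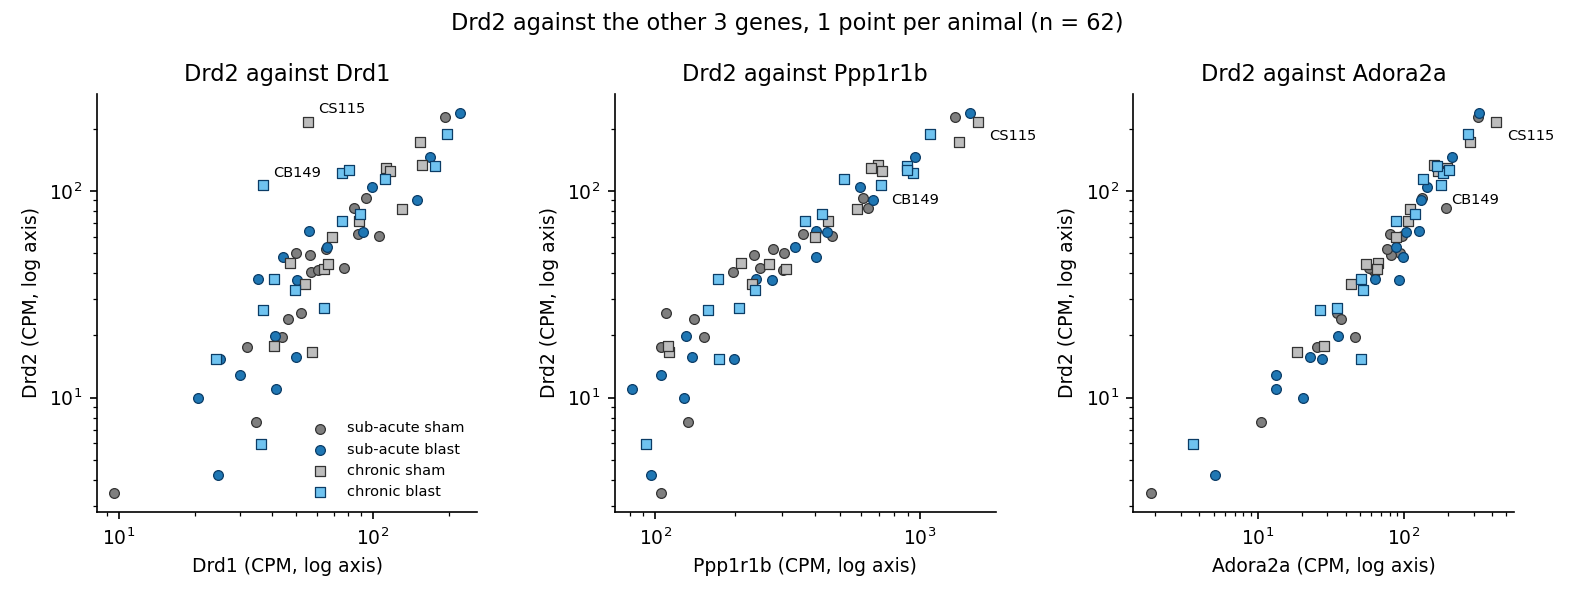
CPM of Drd2 (y axis, log) against CPM of Drd1, Ppp1r1b and Adora2a (x axes, log), with 1 point per animal and the 4 groups by color and shape. Points lie along a line in each panel, with r = 0.971 against Adora2a and r = 0.849 against Drd1. In the Drd1 panel, CS115 and CB149 have the highest Drd2 relative to their Drd1.

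No relation of the 4 genes with library depth passed the test. With the log2 library total, group means removed, r was 0.18 for Drd1 (rho 0.21), -0.14 for Drd2 (rho -0.022), -0.050 for Ppp1r1b (rho 0.062) and -0.20 for Adora2a (rho -0.043). The p of r was 0.16, 0.27, 0.70 and 0.13 in this order (permutation tests, two-sided, smallest adjusted p = 0.32 over 4 relations), and that of rho was 0.11, 0.86, 0.63 and 0.74 (smallest adjusted p = 0.43). Without the 2 totals farthest from the median, r was 0.12, -0.041, 0.13 and -0.095. Within series 1 it was 0.24, -0.24, -0.24 and -0.28, and within series 2 it was 0.088, 0.00091, 0.31 and -0.060.

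Set beside the other genes tested, such values were rare. The median r over 16534 other genes was -0.0020 for Drd1, -0.035 for Drd2, -0.047 for Ppp1r1b and -0.037 for Adora2a. An r of at least 0.8 was reached with Drd1 by 0.502% of them, with Drd2 by 0.871%, with Ppp1r1b by 1.08% and with Adora2a by 0.629%. Ranked by r, Adora2a was the closest of all genes to Drd2, and Drd2 was the closest to Adora2a. Ppp1r1b came at place 14 for Drd2 and for Adora2a, and Drd1 came at place 78 for Drd2 and 199 for Ppp1r1b, with its place for Adora2a between these. Seen from Drd1, Drd2 was at place 28 and Ppp1r1b at 93, with Adora2a a few places behind. The tissue composition of each punch was not measured, and its part in these correlations was not tested. They are given as a description.

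Genes past that r of 0.8 were shared between all pairs of the 4 genes, which the high r within these pairs makes likely. Leaving out the 4 genes themselves, Drd2 and Adora2a shared 98 genes, which was 69.5% of those for Drd2 and 96.1% of the 102 for Adora2a. Drd1 and Drd2 shared 54, which was 65.9% of the 82 for Drd1 and 38.3% of those for Drd2. Drd2 and Ppp1r1b shared 76.6% of those for Drd2 and 61.4% of those for Ppp1r1b. A set of 33 genes was past 0.8 with all 4. In the opposite direction, an r of -0.8 or below was found for 14 genes with Drd1, 18 with Drd2, 12 with Ppp1r1b and 3 with Adora2a.

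The files do not pair the identifiers of these nearest genes with names. For Drd1 they were ENSRNOG00000001628 (r = 0.948), ENSRNOG00000016962 (0.937), ENSRNOG00000002653 (0.933), ENSRNOG00000026953 (0.908) and ENSRNOG00000003209 (0.900). For Drd2, after Adora2a, they were ENSRNOG00000026679 (r = 0.967), ENSRNOG00000021510 (0.966), ENSRNOG00000003800 (0.965) and ENSRNOG00000049580 (0.952). ENSRNOG00000003800 was also among the 5 nearest to Adora2a (r = 0.945), with ENSRNOG00000018780 (0.953), ENSRNOG00000012512 (0.950) and ENSRNOG00000019627 (0.949). The nearest to Ppp1r1b were ENSRNOG00000036828 (r = 0.978), ENSRNOG00000027645 (0.976), ENSRNOG00000030180 (0.971), ENSRNOG00000002229 (0.970) and ENSRNOG00000011310 (0.969), none of which was among the 5 nearest to another of the 4 genes.

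**Figure D3:**
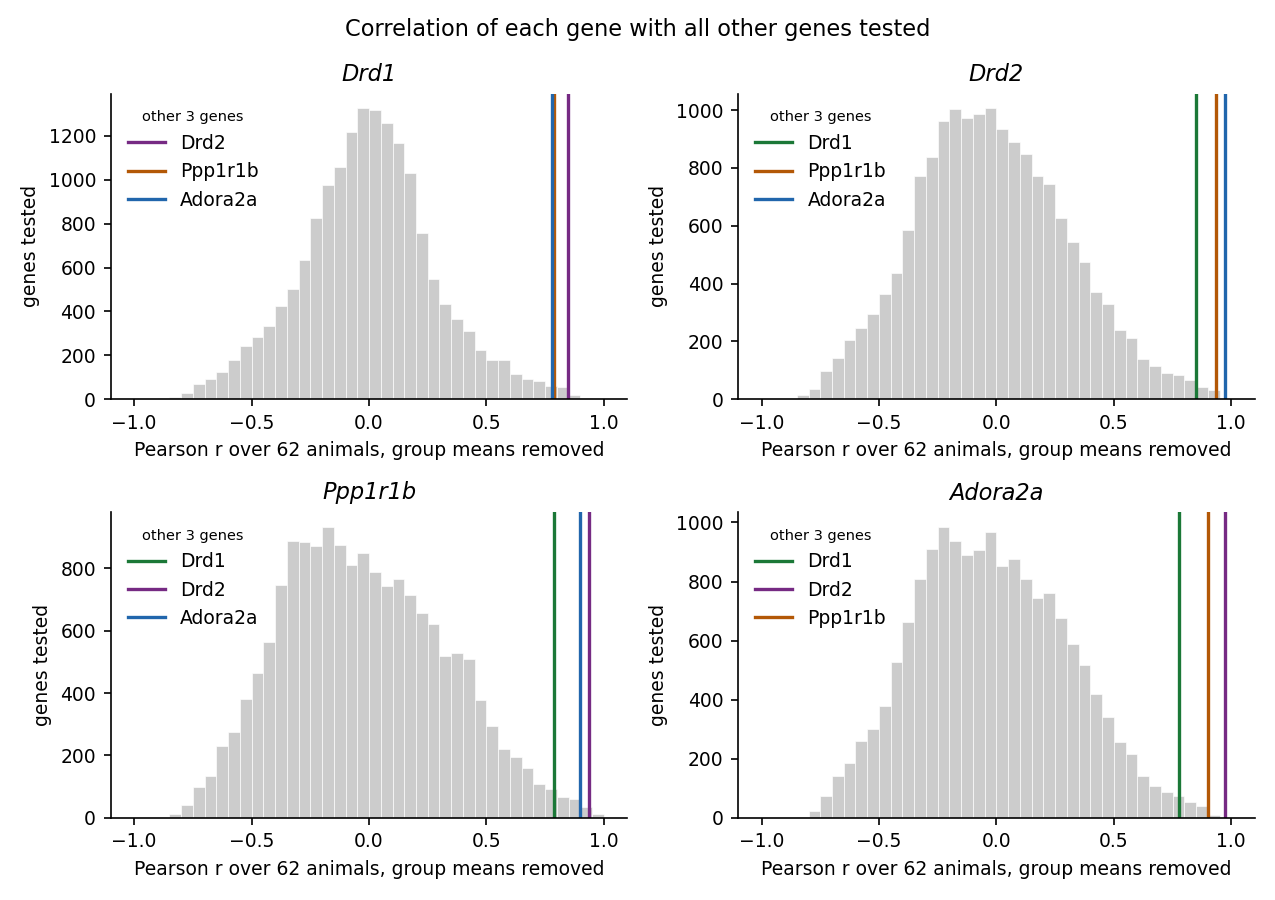
Histograms of the Pearson r over 62 animals, group means removed, between each of the 4 genes and the 16534 other genes tested, with colored lines at the r of the other 3 genes. The lines lie between 0.779 and 0.971, at the right end of distributions whose medians are close to 0.

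The ratio of Adora2a to Drd2 within an animal varied less than the level of either gene. The log2 CPM of Adora2a minus that of Drd2 had an SD of 0.39 over all animals, against the SDs of 1.57 and 1.42 of the log2 CPM of these genes over all animals. Its group medians lay between 0.49 (chronic blast) and 0.70 (sub-acute blast). It was -0.88 in AS208 and -0.71 in CB135, the animals with the lowest Adora2a, and highest in chronic blast CB121 at 1.72. Over all animals the SD was 0.52 for Ppp1r1b minus Drd2, 0.71 for Ppp1r1b minus Drd1 and 1.03 for Adora2a minus Drd1.

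The log2 CPM of Drd2 minus that of Drd1, indirect against direct pathway receptor, had an SD of 0.81 over all animals. Its median was -0.55 in sub-acute sham, -0.53 in sub-acute blast, -0.26 in chronic sham and -0.17 in chronic blast, and the groups overlapped. The 4 highest values were all from chronic animals, with 1.97 in CS115, 1.53 in CB149, 0.69 in CB111 and 0.65 in CB147, ahead of sub-acute sham AS237 at 0.24. Among these animals, CS115 and CB149 were the 2 shallowest libraries, and the part of their depth in this was not tested. Without them the SD was 0.70 and the highest value 0.69. The lowest values were -2.61 in CB135, -2.53 in sub-acute blast AB206 and -2.18 in sub-acute sham AS221.

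**Figure D4:**
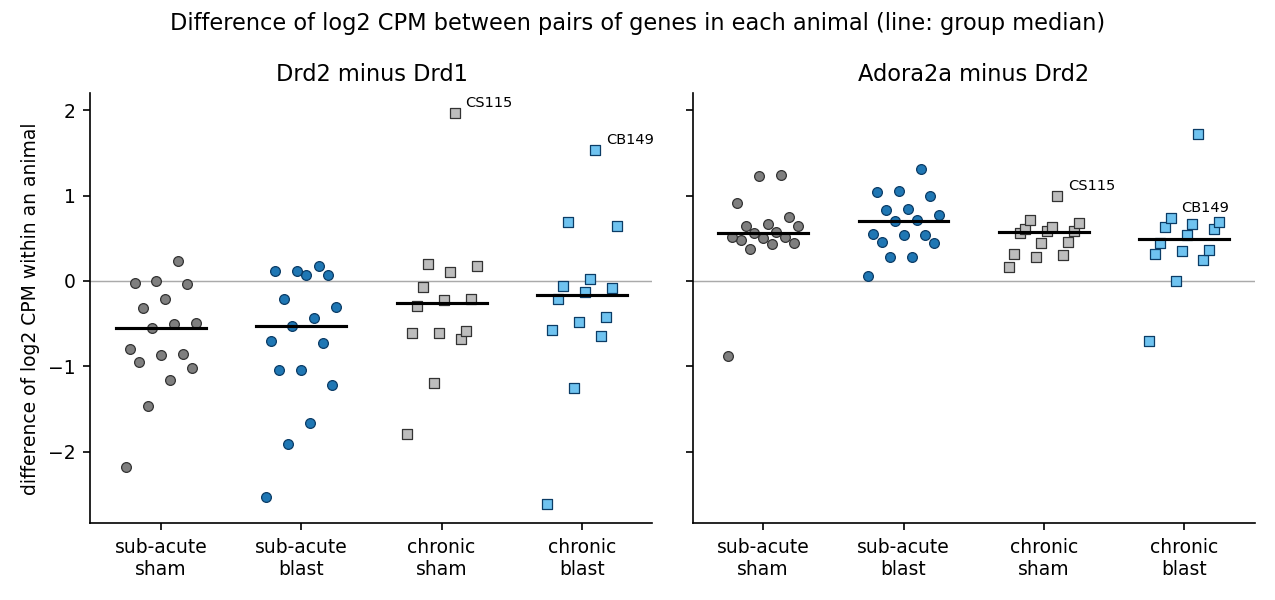
Difference of log2 CPM within each animal, for Drd2 minus Drd1 and for Adora2a minus Drd2, by group with a line at the median. CS115 (1.97) and CB149 (1.53) are the highest for Drd2 minus Drd1, and the SD over all animals is 0.81 there and 0.39 for Adora2a minus Drd2.

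Whether blast changed these genes was examined at each time-point with voom in limma, fitted to all genes tested. At the sub-acute time-point, none of the 4 genes passed the test between blast and sham. The log2 fold change of blast vs. sham was -0.04 for Drd1 (standard error 0.30, 95% confidence interval -0.63 to 0.55, adjusted p = 0.97), -0.07 for Drd2 (0.47, -1.01 to 0.87, adjusted p = 0.97), 0.12 for Ppp1r1b (0.38, -0.65 to 0.89, adjusted p = 0.94) and 0.03 for Adora2a (0.52, -1.01 to 1.08, adjusted p = 0.99). At a fold of at least 1.2 with an adjusted p under 0.05, 0 of 4 were called, as was 0% of all genes. At a raw p under 0.05 it was also 0 of 4, against 5.18% of all genes. The intervals still contain a change of 1.46-fold upward for Drd1 and of 2.12-fold for Adora2a. Downward they reach a fold of blast to sham of 0.646 for Drd1 and 0.495 for Adora2a. Differences of these sizes are not excluded in either direction. Within number series 2 alone, with 14 sham and 12 blast animals, the log2 fold changes were -0.24 for Drd1, -0.20 for Drd2, 0.0096 for Ppp1r1b and 0.065 for Adora2a.

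At the chronic time-point all 4 estimates were below 0 and none passed the test. The log2 fold change of blast vs. sham was -0.27 for Drd1 (standard error 0.33, 95% confidence interval -0.92 to 0.38, adjusted p = 0.93 in limma's test), -0.26 for Drd2 (0.51, -1.29 to 0.76, adjusted p = 0.96), -0.14 for Ppp1r1b (0.42, -0.99 to 0.71, adjusted p = 0.97) and -0.31 for Adora2a (0.58, -1.46 to 0.84, adjusted p = 0.95). As the 4 genes vary together, their shared sign is not 4 separate observations. None of the 4 was called, as was 0% of all genes, and none had a raw p under 0.05, against 5.04% of all genes. The median of the 4 was -0.27, where the median over all genes was 0.0016, with a median standard error of 0.47 against 0.11. Without CS115 and CB149, the estimates were -0.25, -0.21, -0.057 and -0.24 in the order above. With surrogate variables in the model all 4 changed direction, to 0.11, 0.26, 0.098 and 0.23. Such variables are estimated from the same expression values, these 4 genes included, so they can take up variation of the genes themselves.

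Time was examined in the same way, as chronic vs. sub-acute animals of the same treatment. In sham animals the estimates of all 4 genes were above 0 and none passed the test. The log2 fold change was 0.46 for Drd1 (standard error 0.31, 95% confidence interval -0.16 to 1.08, adjusted p = 0.43 in limma's test), 0.84 for Drd2 (0.49, -0.14 to 1.82, adjusted p = 0.36), 0.68 for Ppp1r1b (0.40, -0.12 to 1.49, adjusted p = 0.36) and 0.80 for Adora2a (0.55, -0.30 to 1.90, adjusted p = 0.44). None of the 4 was called at an adjusted p under 0.05 and a fold of 1.2, where 1.55% of all genes were, and none had a raw p under 0.05, where 18.0% of all genes did. The median standard error of the 4 was 0.45, against 0.11 over all genes, which limits what this comparison could show for them. Within number series 1, which leaves 2 sub-acute sham animals against 14 chronic ones, the estimates were 0.75, 1.06, 0.93 and 0.50. With the series as a covariate they were 0.19, 0.58, 0.50 and 0.49, so all 4 were nearer to 0 with this choice. Without CS115 and CB149 they were 0.50, 0.72, 0.53 and 0.64. With surrogate variables in the model all 4 changed direction, to -0.051, -0.099, -0.042 and -0.23.

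In blast animals the estimates for chronic vs. sub-acute were smaller. The log2 fold change was 0.23 for Drd1 (standard error 0.31, 95% confidence interval -0.39 to 0.86, adjusted p = 0.66 in limma's test), 0.65 for Drd2 (0.49, -0.34 to 1.63, adjusted p = 0.40), 0.43 for Ppp1r1b (0.40, -0.38 to 1.23, adjusted p = 0.51) and 0.45 for Adora2a (0.55, -0.65 to 1.56, adjusted p = 0.62). None of the 4 was called in a comparison where 9.73% of all genes were called, and none had a raw p under 0.05, where 29.8% of all genes did. Here too the median standard error of the 4 was 0.45 against 0.11 over all genes. Within number series 1, with 5 sub-acute and 14 chronic blast animals, the estimates were -0.24 for Drd1, 0.18 for Drd2, 0.031 for Ppp1r1b and 0.10 for Adora2a. With the series as a covariate they were -0.017, 0.37, 0.21 and 0.11, so the direction for Drd1 depended on how the series was handled. Without CS115 and CB149 the estimates were 0.29, 0.58, 0.35 and 0.37. With surrogate variables in the model they were 0.015, 0.21, 0.035 and 0.034, and none changed direction.

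The difference between the effects of time in blast and in sham animals was tested as an interaction. It was -0.23 on the log2 scale for Drd1 (standard error 0.44, adjusted p = 0.95 in limma's test), -0.19 for Drd2 (0.70, adjusted p = 0.98), -0.26 for Ppp1r1b (0.57, adjusted p = 0.96) and -0.34 for Adora2a (0.78, adjusted p = 0.96). The 95% confidence interval was widest for Adora2a, from -1.90 to 1.21, and narrowest for Drd1, from -1.11 to 0.65. None of the 4 passed, as was the case for 0% of all genes at an adjusted p under 0.05, and none had a raw p under 0.05, against 5.56% of all genes. The spread between animals, with standard errors of the 4 genes at a median of 0.63 against 0.15 over all genes, limits what this comparison could show for them. Without CS115 and CB149 the values were -0.21, -0.14, -0.17 and -0.27 in the order above. With surrogate variables in the model all 4 changed direction, to 0.066, 0.31, 0.076 and 0.26. Within number series 1, with 2 sub-acute sham animals, the values were -0.99, -0.88, -0.90 and -0.40, and none had an adjusted p under 0.05.

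**Figure D5:**
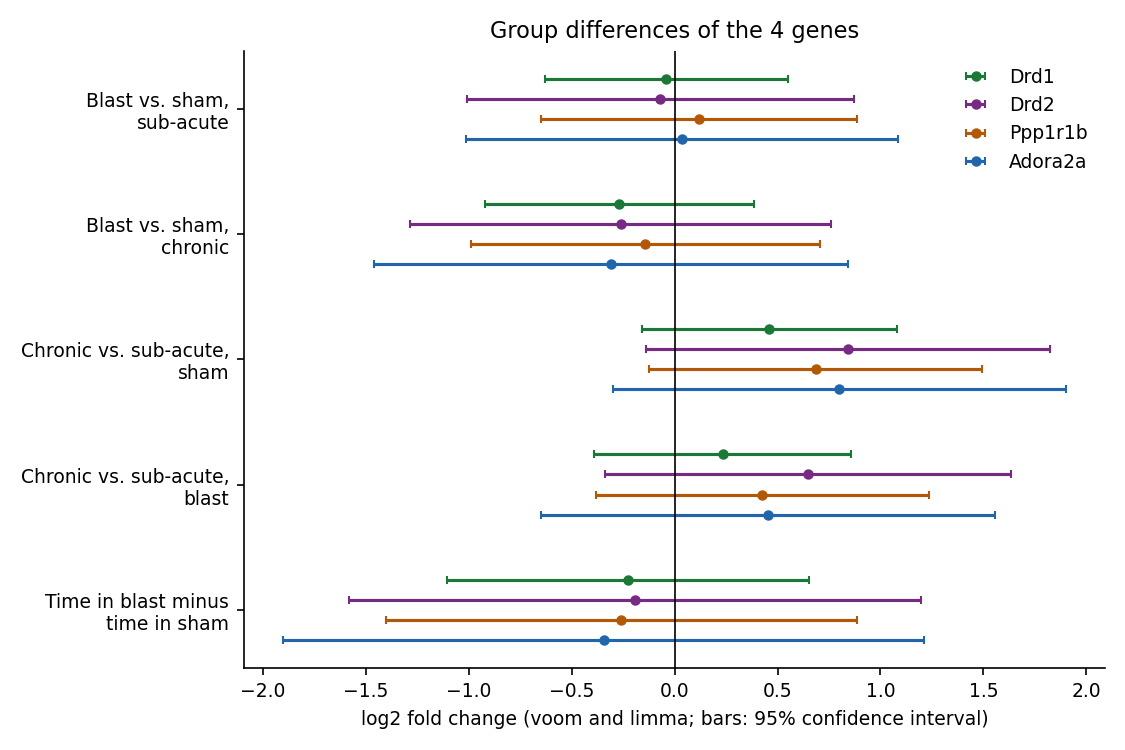
Log2 fold change of Drd1, Drd2, Ppp1r1b and Adora2a in 5 comparisons (points) with the 95% confidence interval from voom and limma (bars), and a line at 0. Every interval crosses 0, and the widest is that of Adora2a for time in blast minus time in sham, from -1.90 to 1.21.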

How the data were processed

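Amygdala RNA-seq of 62 rats was analyzed. The authors made rRNA-depleted stranded libraries, aligned the reads with STAR 2.4.2a to Rnor 6.0, counted them per Ensembl gene with featureCounts 1.4.3-p1 and deposited raw counts, 1 column per animal. The strand setting and the handling of reads with more than 1 alignment are not given in the sources used here. The table held 2 columns that match no sample, which were not used. Groups came from the sample titles.

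From the counts, genes were filtered with edgeR 4.0.16, scaled by TMM and fitted with voom and limma 3.58.1 (R 4.3.3) to the 4 group means, with Benjamini-Hochberg adjustment over 16535 genes. Log2 CPM used a prior count of 2. Correlations used NumPy 2.4.6. The model was tested on simulated data. No pair of libraries of a group agreed within sampling noise (mean chi-square per gene at least 15.8).

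The 4 genes, the named genes (these 4 and the 5 with the highest r to each) and the alternatives were chosen with earlier results of these data known. The 13 marker and pathway lists fixed by symbol could not be used, because no identifier was paired with a symbol, and other dopamine genes are not analysed here. Library totals were 18220986 to 78585782 counts, and the counting error of the 4 genes was at most 9.49%.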

Additional observations from a re-analysis of the deposited data

How the results depend on the processing

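Over 11 alternatives (edgeR's quasi-likelihood test, DESeq2 1.42.0, no filter, library size only, quality weights, surrogate variables from sva 3.50.0, the number series as a covariate or alone, the compared groups alone, no library under 25000000 counts), 0 of 196 log2 fold changes of the 4 genes had a raw p under 0.05, 172 kept their direction and 24 changed it. The cause was not tested. For sub-acute blast vs. sham these were Drd1 and Drd2 with edgeR (0.079 and 0.11) and DESeq2 (0.078 and 0.11), Ppp1r1b and Adora2a with quality weights (-0.13 and -0.41), and Drd1 and Adora2a with surrogate variables (0.041 and -0.034). The 9 surrogate variables were estimated from the same expression values, the 4 genes included. With them Drd1, Drd2, Ppp1r1b and Adora2a became 0.11, 0.26, 0.098 and 0.23 for chronic blast vs. sham, -0.051, -0.099, -0.042 and -0.23 for time in sham, and 0.066, 0.31, 0.076 and 0.26 for the interaction. For the interaction, quality weights gave 0.040 for Drd2 and 0.038 for Adora2a. For time in blast, Drd1 was -0.017 with the series as a covariate and -0.24 within series 1. The 30 correlations under 5 alternatives ran from 0.690 to 0.983, all above 0 with a permutation p under 0.05. No paired analysis was possible because each animal belongs to 1 group and has a number of its own.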

Other observations

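The 4 genes were among the most variable. For this reason the levels of Drd1 and Drd2, singly and together, were also added as covariates to the model of the other 16531 genes. This alternative was chosen after seeing the data, and Ppp1r1b and Adora2a were not used in this way. For time in sham animals, without a covariate, 256 genes passed an adjusted p of 0.05 (limma) with a fold of at least 1.2. The number was 163 with the log2 CPM of Drd2 as a covariate, of which 86.5% were also called without it, and 184 with that of Drd1, of which 86.4% were. With both as covariates 168 genes were called as higher and 48 as lower in chronic sham animals, against 188 and 68 without. With Drd2 alone the lower genes numbered 29.

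In blast animals the number went the other way. Without a covariate 1609 genes were called for time in blast, and the number was 1673 with Drd2 (1378 shared), 1753 with Drd1 (1521 shared) and 1936 with both (1412 shared). Between blast and sham, and for the interaction, no gene was called with any of these covariates, and the lowest adjusted p from limma was 0.53, for blast vs. sham at the sub-acute time-point with both covariates.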
